A study of Mus musculus with 4 samples.

Results

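The 50 symbols described here are mouse imprinted genes, their hosts and neighbours, and the non-coding transcripts that run against them. Members were taken as rows of the series' gene annotation on assembled chromosomes that carry 1 of these symbols. The annotation held 49 of the 50 symbols in 133 transcript rows, among 26125 symbols and 47116 rows on the same chromosomes. The symbol without a row was Nespas, which the RefSeq gene table gives as an older name of Gnasas1. That locus had a row under its newer name and is described with Gnas.

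The study profiled RNA polymerase I, the enzyme that transcribes ribosomal DNA, by CUT&Tag in the mouse embryonic stem cell line C64. CUT&Tag uses an antibody to direct a transposase to the protein's sites on chromatin. There were 2 libraries from auxin-treated cells (500 nM, 6 h) and 2 from untreated control cells, and the labels do not name a protein that auxin would deplete. The file analysed holds positions and no value per library, so auxin and control were not compared, the depth behind each library is unknown, and the cell type was not checked against markers. Coordinates have no replicate error, and the counts below are descriptions without a test.

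Imprinted genes are expressed mainly from the copy inherited from one parent. DNA methylation laid down in the egg or sperm marks a control region in many domains, and ZFP57 and related proteins protect that mark in the early embryo and in embryonic stem cells. In several domains a long non-coding RNA starts at the unmethylated control region, and genes on the same chromosome copy are silenced in cis. Placental and fetal growth, metabolism and brain development are the functions for which the group is best known.

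The 49 loci lay in 21 domains on 11 chromosomes, with 26 on the plus and 23 on the minus strand. A locus here is the stretch from the first to the last base of a symbol's overlapping rows. A coding transcript was annotated for 42 loci, and the other 7 were H19, Kcnq1ot1, Meg3, Rian, Mirg, Airn and Peg13. The median span was 25546 bases for the imprinted loci and 13495 bases for all 26129 loci. Spans ran between 799 bases for Mcts2 and 471585 bases for Trappc9.

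Overlap with another symbol was frequent. Of the 49 imprinted loci, 33 (67.3%) had 1 or more bases in common with a differently named locus on either strand, against 24.9% of all loci. Among coding loci the counts were 26 of 42 imprinted loci (61.9%), against 19.2% of all coding loci. A further count concerned loci lying whole inside another symbol, which were 11 of 49 (22.4%) among imprinted genes and 8.17% among all loci. Loci that held a whole other locus were 18 of 49 (36.7%) among imprinted genes and 6.41% among all loci. The partners outside the list were 26 miRNA loci, 7 snoRNA loci and 13 others. The members were listed together with their known antisense partners and hosts, so a high share is partly built into the list.

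**Figure D1:**
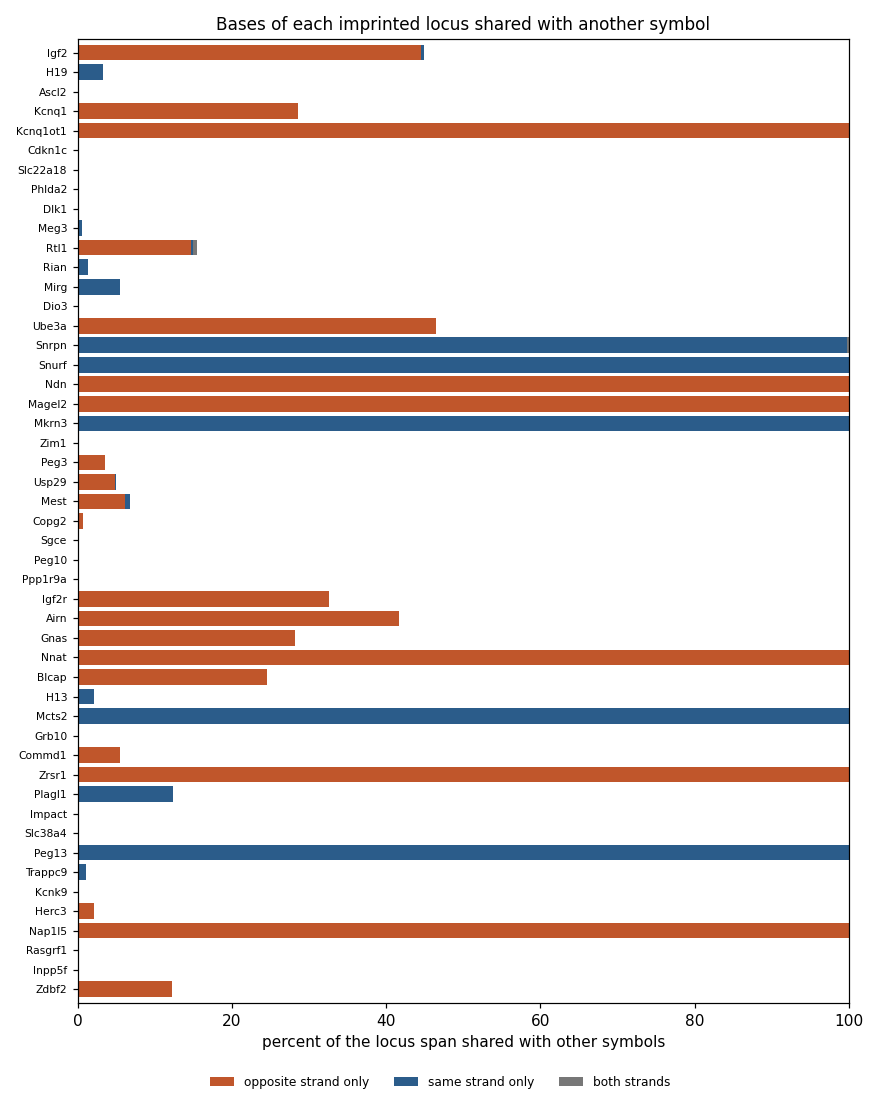
Percent of each of the 49 imprinted loci (rows) shared with other symbols, split by whether the partner is on the opposite strand, the same strand or both. 11 bars reach 100 percent, 16 are at 0, and the rest lie between 0.566 percent for Meg3 and 46.4 percent for Ube3a.

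Shared bases lay on the opposite strand alone in 17 loci, on the same strand alone in 11 and on both in 5. Summed over the imprinted loci, 880372 of 3518564 bases (25.0%) were shared. Snrpn alone gave 467683 of these bases. Bases shared between members were counted in each of them, and the same sum over all loci was not made. Exons of 18 of the 49 imprinted loci (36.7%) met an exon of another symbol, against 14.0% of all loci. Within the list there were 9 overlapping pairs, 6 on opposite strands and 3 on the same strand. Of these pairs, 7 had 1 locus whole inside the other, 4 shared exon bases and 0 shared coding bases.

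The Igf2r domain on chromosome 17 (mm10, positions 12682406 to 12859884) is the classic case of an antisense transcript that covers a promoter. Igf2r encodes the cation-independent mannose 6-phosphate receptor, which clears the growth factor IGF2, and Airn is the paternally expressed RNA that silences it on the same chromosome copy. Airn had 4 transcripts on the plus strand, all with the start 12741311, in intron 2 (8237 bases) of the 48-exon Igf2r transcript. That start lay 28395 bases downstream of the Igf2r start at 12769706, and the longest Airn transcript spanned 118574 bases and ran out past it. The shared 28396 bases made up 32.5% of Igf2r and 23.9% of Airn, and covered Igf2r exons 1 and 2 with 447 bases. None of these were exon bases of Airn, so the exon overlap was 0. At its other end Airn shared 21044 bases with Mas1, a receptor gene on the minus strand, again with 0 exon bases.

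The Igf2r and Airn starts differ in composition, so the stretches before both are shown. In RefSeq sequence of GRCm38.p6, read 5′ to 3′ on the gene's own strand, the 250 bases before the Igf2r start (chr17:12769707-12769956, minus strand) held 27 CpG dinucleotides and those before Airn (chr17:12741061-12741310, plus strand) held 2. Capitals mark CpG, the dinucleotide at which mammalian DNA is methylated. The stretches stop at the starts, so CpG inside the transcribed parts was not counted here.
Igf2r: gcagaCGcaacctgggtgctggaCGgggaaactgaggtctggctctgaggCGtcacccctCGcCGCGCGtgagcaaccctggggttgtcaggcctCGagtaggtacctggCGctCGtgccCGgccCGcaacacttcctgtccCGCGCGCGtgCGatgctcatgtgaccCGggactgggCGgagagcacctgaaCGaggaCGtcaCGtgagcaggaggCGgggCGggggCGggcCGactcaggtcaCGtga
Airn: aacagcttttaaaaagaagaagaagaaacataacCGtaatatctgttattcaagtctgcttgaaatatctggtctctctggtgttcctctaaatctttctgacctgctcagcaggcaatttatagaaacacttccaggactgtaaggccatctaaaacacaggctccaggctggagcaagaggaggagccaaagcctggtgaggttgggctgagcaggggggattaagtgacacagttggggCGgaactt

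The Kcnq1ot1 domain on chromosome 7 (142966822 to 143502524) held 6 members in the order Ascl2, Kcnq1, Kcnq1ot1, Cdkn1c, Slc22a18 and Phlda2. Kcnq1 encodes a potassium channel subunit that acts in heart and inner ear, and Kcnq1ot1 is the paternally expressed RNA that represses genes of the domain in cis. Kcnq1ot1 was a single exon of 83437 bases, the longest exon on the assembled chromosomes of the annotation, ahead of Neat1 with 20771 bases. It lay whole inside Kcnq1 on the other strand and took up 26.1% of that locus. Its start at 143296547 was in Kcnq1 intron 11 (97333 bases), 189293 bases downstream of the Kcnq1 start, and its end was in intron 10 (65851 bases). Of the 16 Kcnq1 exons, exon 11 was the 1 covered, with 121 bases. A further lncRNA on the minus strand, 4933417O13Rik, shared 7879 bases with Kcnq1 and also lay in its intron 11.

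The other 4 members of that domain shared 0 bases with any symbol. Ascl2, a transcription factor of the trophoblast, spanned 2443 bases. Cdkn1c, a cyclin-dependent kinase inhibitor, spanned 2712 bases, with 3 transcripts of 335 or 348 codons. Phlda2, which restrains placental growth, was a compact 977 bases with 144 codons. Slc22a18, a membrane transporter of the SLC22 family, had 2 starts 1338 bases apart and 410 codons from either. The ends of Slc22a18 and Phlda2 faced each other across 2213 bases, and the Cdkn1c and Slc22a18 starts were 12738 bases apart.

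In the Igf2-H19 domain, 300005 bases before Ascl2 on the same chromosome, both members were on the minus strand. Igf2 encodes a fetal growth factor and H19 is a maternally expressed RNA, and between them lay 72621 bases. H19 spanned 2617 bases in 5 exons and held Mir675 (84 bases) inside an exon on its own strand. Igf2 had 5 transcripts with 4 starts over 9320 bases. The starts at 142666816, 142661271 and 142657496 gave the same 543 coding bases (180 codons), and the start at 142658804 gave 576 coding bases (191 codons) that begin in its own upstream exon. Mir483 lay in intron 2 (1205 bases) of 5 of 5 Igf2 transcripts. The plus-strand Igf2os shared 7137 bases (44.5% of Igf2), 98 of them exonic on both strands.

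The Gnas domain on chromosome 2 (174284320 to 174346744) combined antisense transcripts with many starts. Gnas encodes the stimulatory G protein alpha subunit and, from upstream starts, the chromogranin-like Nesp55 and the extra-large form of the subunit. The 12 Gnas transcripts had 5 starts over 45686 bases. From 174284320 came 2 transcripts that code for 253 codons in 762 bases upstream of, and separate from, all other coding spans of the gene. From 174297859 came 5 transcripts with a first exon of 2359 bases. Of these, 4 coded for 827, 876, 1119 or 1133 codons. The fifth coded for 725 codons, and each of its 2178 coding bases was also coding in those 4 in another reading frame. The locus is known for such an overlapping frame, called ALEX. Starts at 174327749 and 174327768 lay 19 bases apart, the first without a coding span. From 174330006 came 3 transcripts of 379, 380 or 394 codons.

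Gnasas1, the symbol that stands for Nespas, ran on the minus strand from 174295436 to 174281237. Its start was in Gnas intron 2 (48734 bases) of the 2 transcripts that begin at the first Gnas start, and upstream of the others. It shared 11117 bases with Gnas, or 78.3% of its own 14200 bases, and ran on past the first Gnas start. The exon overlap was 111 bases. A second minus-strand lncRNA, Gm30189, shared 6482 bases and lay in an intron of each Gnas transcript that spans it. It began 361 bases before the Gnas start at 174327749, in the opposite direction.

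The Snrpn-Ube3a domain on chromosome 7 was the widest, with 3191404 bases between the first base of Ube3a and the last of Mkrn3. Ube3a encodes a ubiquitin ligase that is expressed from the maternal copy in neurons, and Snrpn encodes the SmN protein of splicing complexes. Snhg14, the long RNA that runs from the Snrpn region through clusters of snoRNA genes towards Ube3a, spanned 1177441 bases on the minus strand. It shared 38101 bases with Ube3a, 46.4% of that locus. The shared stretch covered the last 8 exons of either Ube3a transcript (13 and 11 exons) with 8165 bases, while 267 bases were exonic on both strands. The start of Snhg14 was at 60450177, the same base as the start of the longest Snrpn transcript. Snrpn and Snurf lay whole inside it on the same strand.

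Snrpn had 9 transcripts and 6 starts spread over 444978 bases, at 60450177, 60170956, 60140225, 60097614, 60047978 and 60005199. All 9 ended at the same base and shared 1 Snrpn coding span of 723 bases (240 codons). Snurf, a small upstream reading frame on the same RNA, had the exon blocks of 1 of the 9 Snrpn transcripts. Its 216 coding bases (71 codons) shared 0 bases with the Snrpn coding span and lay 6844 bases upstream of it. All 216 were in exons of the 3 Snrpn transcripts that begin at 60005199, and 202 of them in exons of the 6 transcripts that begin farther upstream, which lack the exon with the first bases of the Snurf frame. Gm7367, a transcribed pseudogene on the plus strand, lay in an intron of the 2 Snrpn transcripts that reach it.

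The last of these starts, shared by Snurf and 3 Snrpn transcripts, is the one that belongs to the domain's imprinting centre. The 250 bases before it (chr7:60005200-60005449, minus strand, CpG in capitals) held 3 CpG. Bases after the start are not in this stretch, so the count does not describe the imprinting centre as a whole.
Snurf and Snrpn: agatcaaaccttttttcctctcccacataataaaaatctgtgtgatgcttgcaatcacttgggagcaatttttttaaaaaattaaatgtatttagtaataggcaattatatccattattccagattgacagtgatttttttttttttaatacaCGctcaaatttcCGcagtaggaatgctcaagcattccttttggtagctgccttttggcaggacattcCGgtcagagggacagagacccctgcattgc

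Windows of 300 bases, 250 before a start and 50 after it, held 7 CpG at that start, against 4, 3 and 2 CpG at the Snrpn starts 60047978, 60140225 and 60450177. The remaining members of the domain began 1898099 bases beyond Snrpn. Ndn and Magel2, MAGE-family genes expressed in the hypothalamus and elsewhere in brain, and Mkrn3, a RING-finger gene, were single exons of 1652, 4662 and 2561 bases. All 3 lay in intron 1 (81207 bases) of Gm32061, a minus-strand lncRNA of 85606 bases, with Ndn and Magel2 on the strand opposite to it and Mkrn3 on its strand. They met 0 of its exon bases.

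**Figure D2:**
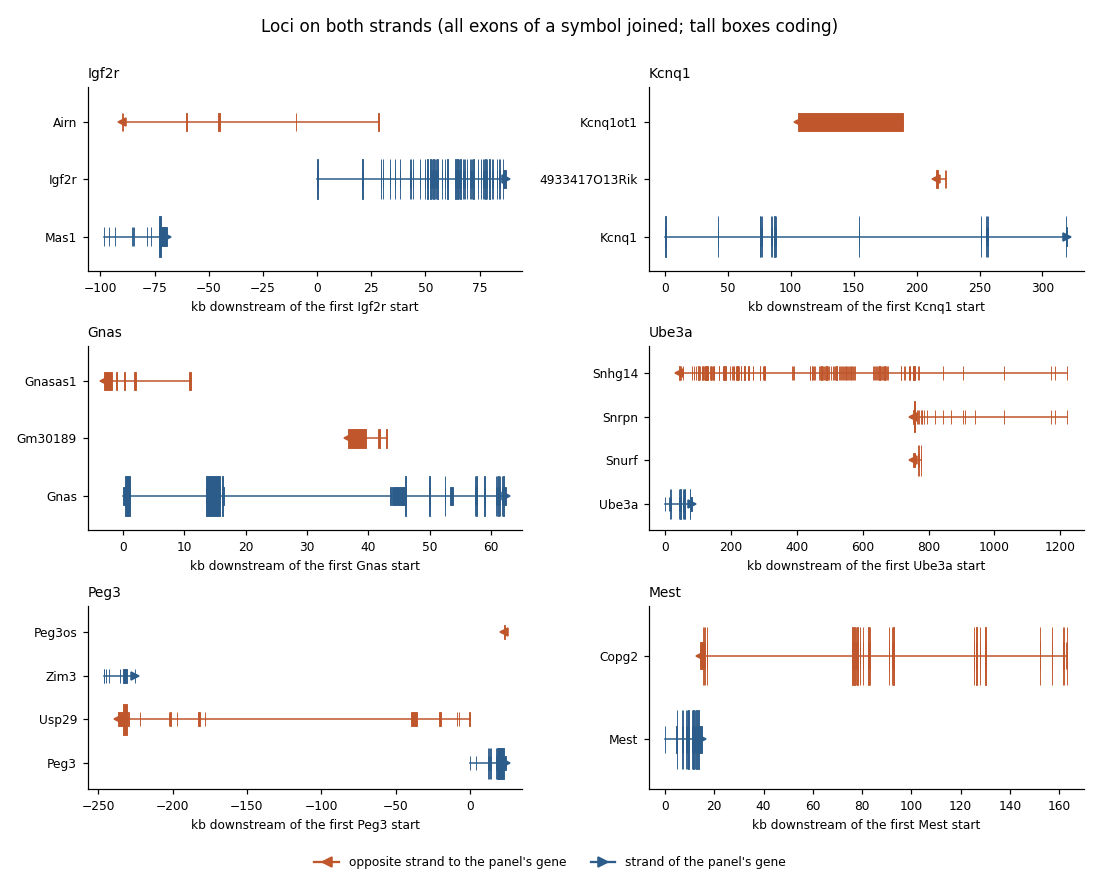
Loci of both strands in 6 domains, by kb downstream of the first start of the gene that names the panel. Thin lines are spans, low boxes exons and tall boxes coding exons of all transcripts of a symbol joined, and arrows show the direction of transcription. Airn and Gnasas1 cross the start of their partner, Kcnq1ot1 lies whole inside Kcnq1, and Snhg14, Zim3 and Copg2 overlap the 3′ part of theirs.

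The Dlk1-Dio3 domain on chromosome 12 (109452823 to 110281097) held Dlk1, Meg3, Rian, Mirg and Dio3 on the plus strand and Rtl1 on the minus strand. Dlk1 encodes a membrane protein with EGF-like repeats, Rtl1 a protein derived from a retrotransposon and needed in placenta, and Dio3 the deiodinase that inactivates thyroid hormone. Meg3, Rian and Mirg are maternally expressed RNAs. Within the domain's 828275 bases there were 71 further loci, of which 61 were miRNA and 7 snoRNA loci, and 65 of the 71 were on the plus strand. Of these, 2 miRNA loci lay in Meg3, 3 in Rian and 10 in Mirg, and the 7 snoRNA loci lay in Rian introns. Mirg ended 529771 bases before Dio3. Dio3 was 1 exon of 1868 bases, and the start of Dio3os, on the other strand, lay 1161 bases from its own.

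Rtl1 was the member met by most small RNA loci of the other strand. Its 5235 coding bases (1744 codons) lay in 1 exon, and 7 miRNA hairpins lay whole within them. Mir431, Mir433, Mir127, Mir434, Mir432 and Mir136 were on the plus strand and so antisense to Rtl1, and Mir3071 was on the Rtl1 strand. Their mature sequences are shown because each plus-strand one is complementary over its full length to the Rtl1 coding strand (RefSeq, GRCm38.p6, seed bases 2 to 8 in capitals).
miR-431-5p: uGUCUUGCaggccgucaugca
miR-431-3p: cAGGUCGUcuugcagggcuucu
miR-433-5p: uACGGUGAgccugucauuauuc
miR-433-3p: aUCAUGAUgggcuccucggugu
miR-127-5p: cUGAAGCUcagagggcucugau
miR-127-3p: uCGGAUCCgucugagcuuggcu
miR-434-5p: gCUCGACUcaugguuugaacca
miR-434-3p: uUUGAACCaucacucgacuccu
miR-432: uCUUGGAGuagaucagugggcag
miR-136-5p: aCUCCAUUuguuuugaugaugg
miR-136-3p: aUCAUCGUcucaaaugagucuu
miR-3071-5p: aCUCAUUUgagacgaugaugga
miR-3071-3p: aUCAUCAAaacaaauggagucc

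The hairpins of Mir136 (109595327 to 109595388) and Mir3071 (109595318 to 109595397) occupied the same place on opposite strands. Their arms met across the strands. Over 20 genome bases miR-136-5p coincided with miR-3071-3p, and over 19 bases miR-136-3p coincided with miR-3071-5p. A lncRNA of the plus strand, 6430411K18Rik, shared 1315 exon bases with Rtl1. That stretch holds the Mir433 hairpin and the first bases of Mir127, so these are counted in both. In all, 1719 of 6358 Rtl1 exon bases (27.0%) were exonic in another symbol.

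Across the list, 26 miRNA loci lay in a member, 20 on its strand and the 6 in Rtl1 on the other. All 26 had mature sequences in RefSeq, 49 in number with 48 different seeds. The 1 shared seed belonged to a pair in Mirg, whose sequences are shown to let the seed and the rest be compared.
miR-453: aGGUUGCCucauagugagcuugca
miR-496a-5p: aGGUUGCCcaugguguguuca

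Host RNAs differed in how they carried their miRNAs. In H19 and in Mirg for Mir410 the hairpin was whole in an exon, whereas Mir335 lay in an intron of 3 of 3 Mest transcripts and Mir3099 in an intron of the 6 Usp29 transcripts that reach it. Mir770 was exonic in 2 Meg3 transcripts and intronic (13070 bases) in the longest. Meg3 had 3 transcripts and 2 starts 4402 bases apart, and Mir1906-1 lay in an exon of the 2 that begin at the first start and upstream of the second start.

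The Peg3 domain on chromosome 7 (6675443 to 6967219) held Zim1, Peg3 and Usp29. Peg3 and Zim1 encode zinc finger proteins and Usp29 a ubiquitin protease. Peg3 and Usp29 pointed away from each other, with starts separated by 163 bases. Usp29 had 8 transcripts from 1 start, with spans of 20887 to 236637 bases. Its 869 codons lay in 1 exon at the far end of the 4 longest transcripts. At that end Zim3 overlapped it tail to tail with 11535 bases, 2582 of them exonic on both strands. Peg3os, an antisense RNA of 865 bases, lay inside an exon of Peg3, while Zim1 shared 0 bases and lay 9527 bases beyond the Peg3 end.

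The full gap between the Peg3 and Usp29 starts is printed because both genes are transcribed out of it (chr7:6730420-6730582, Usp29 strand, CpG in capitals). It held 5 CpG. As printed, its first base adjoins the Peg3 start and its last base the Usp29 start.
Usp29 to Peg3: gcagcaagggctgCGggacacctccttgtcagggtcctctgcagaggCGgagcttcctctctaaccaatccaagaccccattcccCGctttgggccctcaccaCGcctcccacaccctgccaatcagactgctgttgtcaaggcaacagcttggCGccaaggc

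A closer pair of starts was that of Peg10 and Sgce on chromosome 6, 101 bases apart on opposite strands. Sgce encodes epsilon-sarcoglycan and had 5 transcripts of 434 to 473 codons from 1 start. Peg10, derived from a retrotransposon, is known in mammals for a programmed frameshift that joins its gag-like and pol-like reading frames. The annotation carried this as 2 rows with the same 6667 exon bases. In the first, 1131 coding bases (376 codons) lay in 1 exon. In the second, that exon was cut into 2 blocks that touch at 4755330 and 4755331 with 0 bases between them, and the coding span went on to 4757240. Its blocks held 1110 and 1910 coding bases, and the total of 3020 left a remainder of 2 after division by 3. Of 38851 coding rows on assembled chromosomes, 10 were not a multiple of 3, and Peg10 was the 1 member among them. Ppp1r9a, which encodes the actin-binding protein neurabin, lay 142457 bases beyond Peg10 and had 2 starts 336 bases apart with 1095 codons from either.

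The Mest domain was a tail-to-tail pair. Mest encodes a hydrolase-fold protein of mesoderm and Copg2 a subunit of the COPI vesicle coat. The 913 shared bases were exonic on both strands and lay within the last exon of each of the 3 Mest transcripts. They amounted to 6.1% of Mest and 0.612% of the much longer Copg2. Mest had starts at 30733506, 30738050 and 30738053, which gave 326, 335 and 342 codons.

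Single-exon genes inside other loci formed the next group. Of 9 single-exon members, 8 lay whole inside another symbol (88.9%), against 32.7% of all single-exon loci. Several of them were listed together with their hosts, so this share is partly built into the list. Besides Kcnq1ot1 and the 3 genes in Gm32061 these were Mcts2, Nap1l5, Zrsr1 and Peg13, and Dio3 stood alone. Retrogenes are copies made from spliced RNA, and a maternally methylated promoter inside a host gene is the known arrangement for Mcts2, Nap1l5 and Zrsr1. Nnat, which has 2 or 3 exons, sits in its host in the same way.

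Mcts2, a copy of the translation factor gene Mcts1, spanned 799 bases on chromosome 2 with 181 codons. Its host H13 encodes signal peptide peptidase and had 4 transcripts from 1 start on the same strand. In 2 of them, which end at 152708668, Mcts2 lay in intron 4 (2476 bases) and filled 32.3% of it. The other 2 H13 transcripts ended 2001 and 439 bases before Mcts2, with 173 and 224 codons in place of 394 and 378. All 4 H13 transcripts either stopped short of the retrogene or carried it in an intron.

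Nap1l5, related to nucleosome assembly proteins, showed the same arrangement on the opposite strand of Herc3, a HECT-type ubiquitin ligase gene on chromosome 6. It spanned 1894 bases with 156 codons and lay in an intron of 21787 bases in 2 Herc3 transcripts of 1050 codons. The other Herc3 transcript, of 913 codons, ended 1151 bases before it. The 2 Herc3 starts were 2235 bases apart.

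Nnat encodes neuronatin, a small membrane protein of the brain and endocrine cells. Its 5 transcripts shared 1 start and 2448 bases on chromosome 2, and coded for 54, 63, 81, 125 or 129 codons. They lay in the single intron of Blcap (7892 or 7920 bases), on the opposite strand, and filled 30.9 to 31.0% of it. Blcap, a small membrane protein gene, coded for 87 codons in its second exon alone.

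Zrsr1, a copy of a splicing factor gene, spanned 4492 bases with 428 codons on chromosome 11, opposite to Commd1, a gene of copper and endosome traffic. It lay in intron 1 (25386 bases) of the Commd1 transcript that starts at 22982284. The second Commd1 transcript started at 22972866, inside Zrsr1, and its first exon of 216 bases was covered whole by the Zrsr1 exon. The second start gave 123 codons, and the first gave 188.

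Peg13 is a paternally expressed RNA of the Trappc9 domain on chromosome 15. It was 1 exon of 4723 bases on the strand of Trappc9, which encodes a subunit of a vesicle tethering complex. In 2 Trappc9 transcripts it lay in intron 16 (146198 bases), and in 1 in the last intron, number 17 (102154 bases). The remaining transcript ended 183492 bases short of it. Kcnk9, a potassium channel gene of the same domain, lay 41920 bases beyond the Trappc9 end, coded for 402 codons and shared 0 bases.

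**Figure D3:**
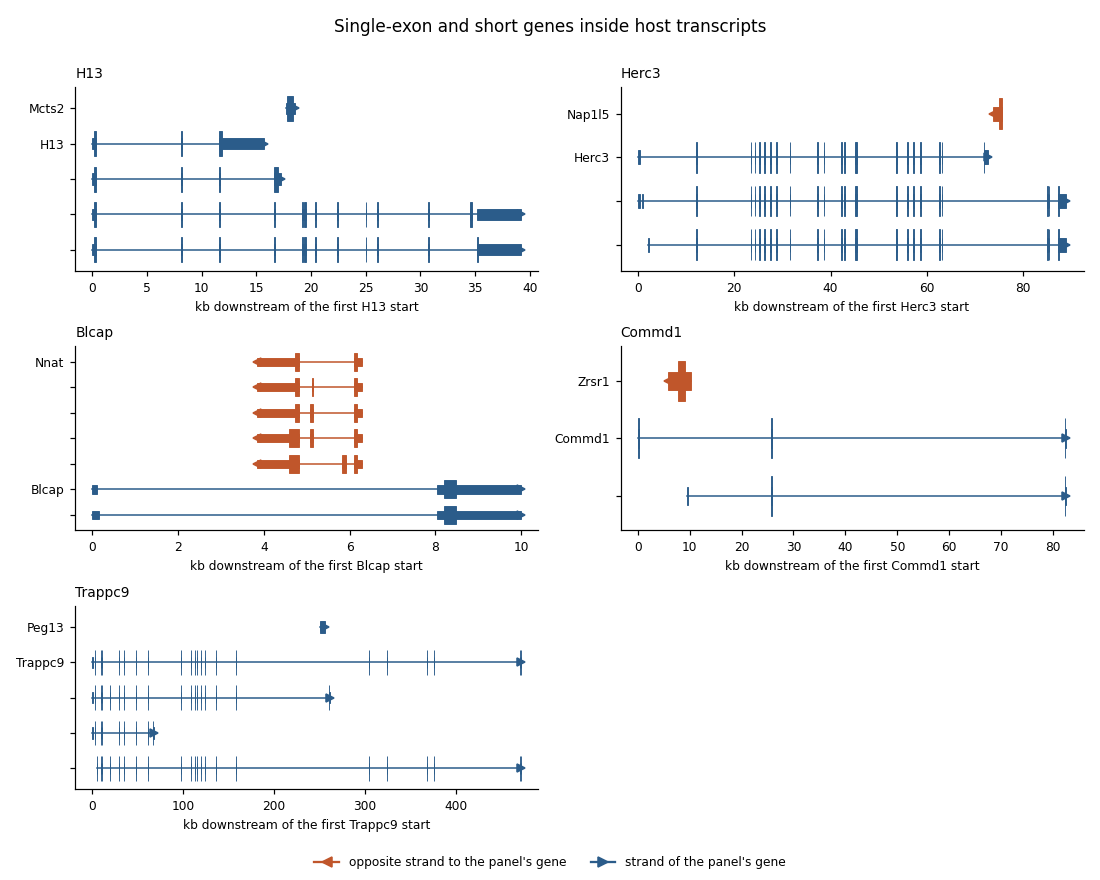
Transcripts of 5 hosts and the gene inside each, by kb downstream of the first host start, with low boxes for exons and tall boxes for coding exons. In H13, Herc3 and Trappc9 some host transcripts end before the inner gene, and the second Commd1 transcript starts inside Zrsr1.

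The stretches before the starts of the 4 protein-coding inner genes are shown on each gene's strand, with CpG in capitals, since these are the promoters placed within another gene. Over 250 bases they held 20 CpG for Mcts2 (chr2:152686898-152687147, plus strand), 12 for Nnat (chr2:157559828-157560077, plus strand), 10 for Nap1l5 (chr6:58907127-58907376, minus strand) and 8 for Zrsr1 (chr11:22971755-22972004, plus strand).
Mcts2: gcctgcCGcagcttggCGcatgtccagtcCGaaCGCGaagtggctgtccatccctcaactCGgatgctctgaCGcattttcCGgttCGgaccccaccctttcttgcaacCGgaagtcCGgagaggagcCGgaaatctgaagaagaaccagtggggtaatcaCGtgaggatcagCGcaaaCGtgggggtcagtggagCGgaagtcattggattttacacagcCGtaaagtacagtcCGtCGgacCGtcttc
Nnat: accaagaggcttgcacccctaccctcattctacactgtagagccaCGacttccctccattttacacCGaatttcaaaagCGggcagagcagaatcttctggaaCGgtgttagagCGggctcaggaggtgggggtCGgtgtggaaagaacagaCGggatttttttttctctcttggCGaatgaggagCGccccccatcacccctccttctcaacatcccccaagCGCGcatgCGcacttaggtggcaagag
Nap1l5: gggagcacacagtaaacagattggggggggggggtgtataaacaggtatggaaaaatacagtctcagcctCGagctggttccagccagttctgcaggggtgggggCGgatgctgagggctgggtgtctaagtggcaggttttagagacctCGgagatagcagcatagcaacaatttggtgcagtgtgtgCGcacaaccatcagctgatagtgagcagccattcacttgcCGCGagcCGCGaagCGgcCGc
Zrsr1: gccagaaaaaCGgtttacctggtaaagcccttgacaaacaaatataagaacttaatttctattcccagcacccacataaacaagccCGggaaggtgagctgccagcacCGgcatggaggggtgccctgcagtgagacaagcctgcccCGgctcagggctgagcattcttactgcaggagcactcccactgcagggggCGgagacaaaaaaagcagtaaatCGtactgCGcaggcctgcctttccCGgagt

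The letters TGCCGC, the core of the element that ZFP57 binds when methylated, occurred in 2 of these 4 stretches. In Mcts2 they began 247 bases before the start and in Nap1l5 24 bases before it, both on the printed strand. Counted on both strands in the full windows of 300 bases, the hexamer was present in 14 of 56 distinct windows of imprinted genes (25.0%), against 11.6% of all 32817 windows in the RefSeq table. Among coding genes the shares were 26.0% for imprinted genes and 14.5% for all. The hexamer itself contains a CpG, and windows of imprinted genes held more CpG. Medians were 15.0 against 7.0 for all windows and 17.0 against 14.0 for coding genes. The part of this difference in the shares was not tested. The windows with a match were those of Igf2 (start 142661271), Meg3 (109540996), Snurf and Snrpn (60005199), Zim1, Mest (30738050 and 30738053), Copg2, Nnat, Mcts2, Grb10 (12037420), Commd1 (22982284), Plagl1, Nap1l5 and Zdbf2 (63200358). The Mest pair of windows overlaps, Snurf and Snrpn share 1 window, and a match to 6 letters is not a binding site.

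Several starts were annotated for 16 of the 49 imprinted loci (32.7%), against 15.0% of all loci. In 15 of the 49 (30.6%) starts lay more than 500 bases apart, against 9.86% of all loci. Among coding loci the shares with several starts were 35.7% for imprinted genes and 17.7% for all. Imprinted loci also carried more transcripts, with a median of 2 per imprinted locus and 1 per locus in all, and its part in the number of starts was not tested. In 4 of the 16 all coding transcripts had the same coding span (Slc22a18, Snrpn, Ppp1r9a and Slc38a4), in 11 there were several coding spans, and Meg3 is non-coding. Several spans did not always go with different starts. Both Herc3 starts gave the same span of 1050 codons, and all Dlk1 spans came from the start 109453455.

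Grb10, an adaptor protein that dampens insulin and IGF receptor signalling, had 3 transcripts on chromosome 11 and starts at 12037420 and 12027971, 9449 bases apart. The gene is known for a maternally expressed start in most tissues and a paternally expressed start in neurons. The annotation does not give the parental copy or tissue of either start described here. All 3 coding spans began at the same base, 11970616, downstream of both starts, and held 596, 621 and 541 codons, the last from the downstream start. The locus shared 0 of its 106922 bases with another symbol. Both stretches of 250 bases before the starts are shown for their difference in CpG (capitals), with 40 CpG at the upstream start (chr11:12037421-12037670, minus strand) and 8 at the downstream start (chr11:12027972-12028221, minus strand).
Grb10 upstream start: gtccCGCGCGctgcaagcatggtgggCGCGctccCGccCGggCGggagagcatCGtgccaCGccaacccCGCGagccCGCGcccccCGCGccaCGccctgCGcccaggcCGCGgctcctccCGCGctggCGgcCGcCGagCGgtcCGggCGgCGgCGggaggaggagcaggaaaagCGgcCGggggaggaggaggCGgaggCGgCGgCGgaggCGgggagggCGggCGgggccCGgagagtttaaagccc
Grb10 downstream start: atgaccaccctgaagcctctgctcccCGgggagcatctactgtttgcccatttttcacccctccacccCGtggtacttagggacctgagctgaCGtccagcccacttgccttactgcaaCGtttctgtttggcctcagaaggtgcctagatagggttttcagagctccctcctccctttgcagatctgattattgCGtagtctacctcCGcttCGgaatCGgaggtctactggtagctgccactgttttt

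Zdbf2, a zinc finger gene of chromosome 1, had starts 72911 bases apart. The upstream start at 63200358 lay in intron 2 (25649 bases) of Gpr1, a receptor gene on the minus strand, and the Gpr1 start lay in intron 2 of the long Zdbf2 transcripts. The shared 13924 bases made up 12.2% of Zdbf2 and 43.9% of Gpr1, with 0 exon bases. From the upstream start the coding span held 2498 codons and from the downstream start at 63273269 it held 2493. Windows of 300 bases at these starts held 15 and 38 CpG.

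Inpp5f, an inositol phosphatase gene of chromosome 7, had starts 77505 bases apart, farther than those of Zdbf2. The upstream start gave 20 exons and 1132 codons and the downstream start 6 exons and 505 codons, and both coding spans ended at 128695325. Slc38a4, an amino acid transporter gene of chromosome 15, had 3 starts over 35597 bases with the same 547 codons. Its 3 windows held 5 CpG each. Impact, an inhibitor of the stress kinase GCN2, had 2 starts on chromosome 18, 2537 bases apart, with 318 and 300 codons. Dlk1 had 4 coding transcripts of 290 to 385 codons from a start 632 bases downstream of a non-coding one, and Trappc9 had 2 starts 5392 bases apart.

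**Figure D4:**
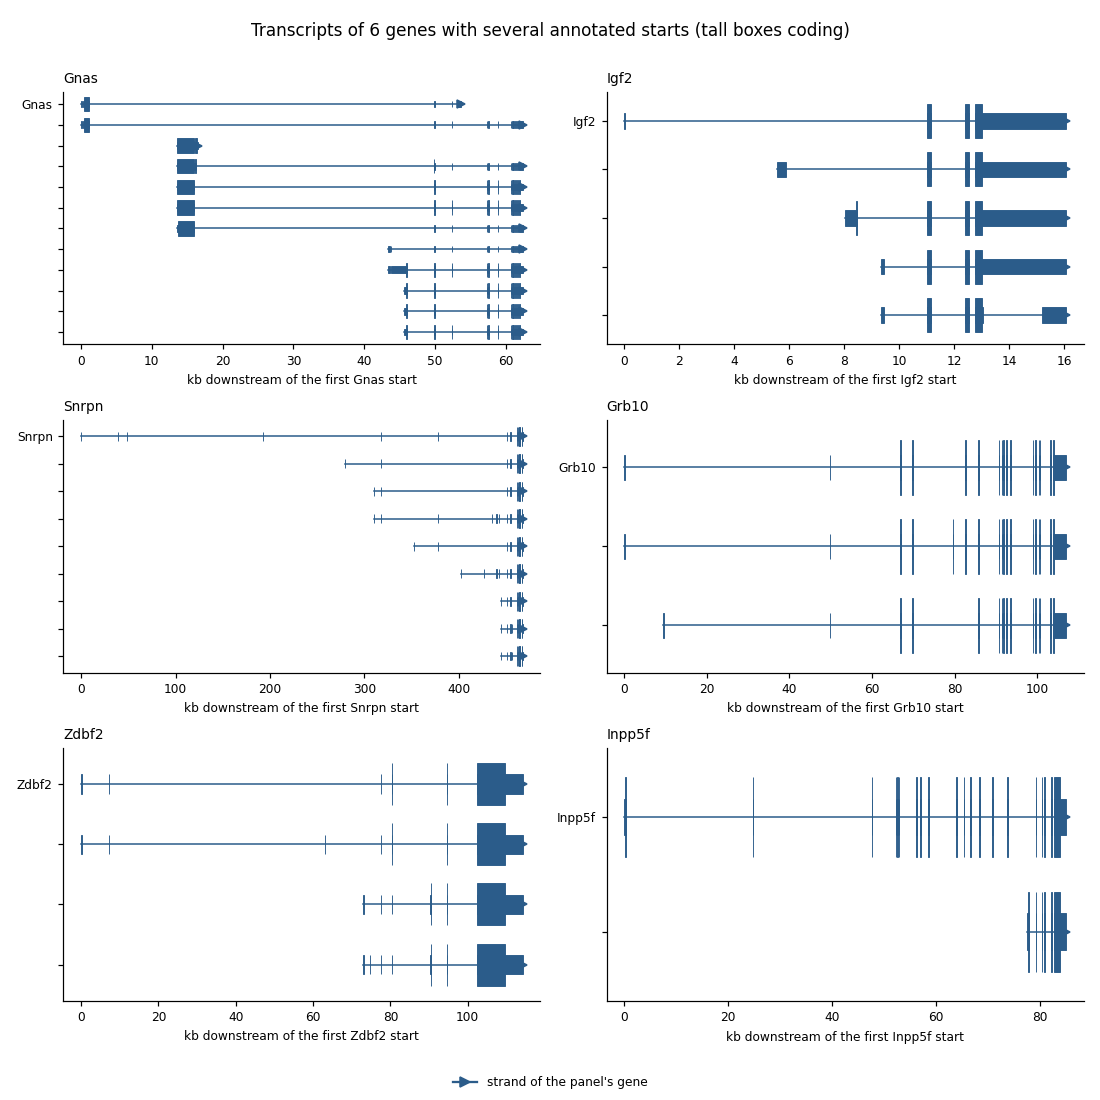
Transcripts of 6 imprinted genes by kb downstream of each gene's first annotated start, with low boxes for exons and tall boxes for coding exons. Starts are spread over 45686 bases in Gnas, 9320 in Igf2, 444978 in Snrpn, 9449 in Grb10, 72911 in Zdbf2 and 77505 in Inpp5f.

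Plagl1 and Rasgrf1 each used 1 start. Plagl1, a zinc finger transcription factor gene of chromosome 10, had 4 transcripts of 678 or 704 codons. Hymai, a paternally expressed RNA, started 13 bases downstream of it on the same strand and shared 5056 bases, 218 of them exonic in both. Rasgrf1, an exchange factor for Ras on chromosome 9, had 4 transcripts, 2 that end early with 108 or 178 codons and 2 of 27 exons with 1260 or 1262 codons. It shared 0 of 117205 bases.

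Windows around annotated starts were matched for 39 of the 50 symbols, and all 57 windows lay at a start of the annotation to the base. Not every start of these symbols had a window. Those without included Gnas 174297859, Snrpn 60170956 and 60097614, and the coding Dlk1 start 109453455. The windows reach 50 bases past a start, and CpG farther downstream was not counted. The median was 15.0 CpG per window for imprinted genes (56 distinct windows) and 7.0 for all genes. For coding genes alone it was 17.0 for imprinted genes and 14.0 for all. The upper quartile of coding genes was 25.0 CpG in both, and the lower quartiles were 9.0 for imprinted genes and 4.0 for all. At least 25 CpG were found in 14 windows (25.0%) of imprinted genes and in 18.4% of all windows. Fewer than 6 CpG were found in 12 windows of imprinted genes (21.4%), against 43.6% of all windows. The poorest was Rian with 0 and the richest a Ppp1r9a start with 48. Genes with several starts differed within themselves. Grb10 windows held 45 and 9 CpG, those of Igf2 2, 14, 24 and 7 in order of transcription, and those of Gnas 16 at 174284320, 27 and 28 at the pair of middle starts and 40 at 174330006.

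**Figure D5:**
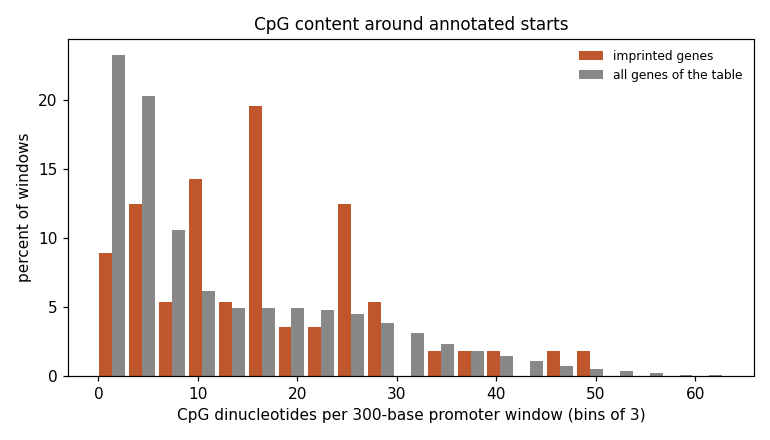
Share of promoter windows (percent, vertical axis) by number of CpG dinucleotides in 300 bases (horizontal axis, bins of 3), for 56 windows of imprinted genes and 32817 windows of all genes. Imprinted genes have fewer windows in the lowest bins, 21.4 percent against 43.6 percent with fewer than 6 CpG, and the medians are 15.0 and 7.0. For coding genes alone, not drawn here, the medians are 17.0 and 14.0.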

How the data were processed

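Pol I CUT&Tag was made from 2 auxin and 2 control libraries. The submitters' processing notes name build mm10 and FastQC, Bowtie2, deepTools and bedtools; their roles and versions, and how the annotation arose, are not given in these sources. The table analysed is a BED annotation, as deposited by the authors, whose score was 0 in each of its 50727 rows. Positions are printed counted from 1. Rows of 1 symbol, chromosome and strand sharing a base were joined into a locus, and loci of different symbols sharing at least 1 base were called overlapping, with Python 3.11.15, pandas 2.3.3 and numpy 2.4.6; figures used matplotlib 3.10.9. Overlap calls were tested on simulated data, where 0 pairs among 600 genes differed from a comparison of every pair. Classes, older names, promoter windows and miRNAs came from RefSeq tables of GRCm38.p6. All members were to be named, with other symbols only where they overlap a member, lie in its domain or stand in 2 further lists. The members and lists were chosen with earlier results of these data known. The alternatives changed strand, minimum overlap, exons against whole loci, small RNA partners, start distance, name matching and row counting. No comparison of auxin with control was made, because no value per library was analysed and depth is unknown. For the same reason intervals and detection limits are not given.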

Additional observations from a re-analysis of the deposited data

How the results depend on the processing

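Of 17 alternatives to 7 counts, 11 stayed within 1.5 times the reported count and 6 did not. Of the 33 imprinted loci that shared a base with another symbol, 16 did so when partners on the same strand alone were admitted, and 18 when exons alone were compared. The 11 loci lying whole inside another symbol divided into 5 on the strand of their host and 6 on the opposite strand. The 18 loci that held another whole locus became 11 with miRNA and snoRNA genes left out. The 9 overlapping pairs among members became 4 over exons alone. The construction of these alternatives, which admit fewer partners or bases, sets the direction. Accepting older and newer names raised the symbols with a row to 50, and counting identical intervals once lowered the transcript rows to 90.

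No paired analysis was possible because no value per library was analysed, and the planned comparison of Pol I signal between auxin and control was not run. An annotation lists what its curators recorded, so a start or antisense transcript without a row is not shown to be absent from these cells. The promoter windows cover 39 of 50 symbols, and not every start of these.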

Other observations

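A list of 30 further imprinted genes was read beside the members. Of these symbols 29 had a row, and 7 of these (24.1%) shared a base with another symbol, a share near the 24.9% of all loci. The first in list order were Ins2, Th, Tspan32, Cd81, Tssc4 and Nap1l4, of which Cd81 shared bases, with R74862. Several starts were annotated for 12 of the 29 (41.4%), against 15.0% of all loci, and 4 lay within a domain span of the members, among them Tspan32, Cd81 and Tssc4 between Ascl2 and Kcnq1. Their median span was 38664 bases.

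Factors that lay down or maintain DNA methylation and imprints, such as Zfp57, Zfp445, Trim28, Dnmt1, Dnmt3a and Dnmt3b, had a row for 12 of 12 symbols. Of these, 5 (41.7%) shared a base with another symbol, against 24.9% of all loci, and 5 (41.7%) had several starts, against 15.0% of all loci. Dnmt3a, which lays down DNA methylation, overlapped its antisense RNA Dnmt3aos.

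Some imprinted genes had further rows on contigs outside the assembled chromosomes. Dlk1, Meg3, Rtl1 and Rian were repeated on a fix contig of chromosome 12, where Meg3 spanned 31285 bases, against 30734 bases on the chromosome. Igf2r and Airn were repeated on an alternate contig of chromosome 17. There Igf2r spanned 38388 bases, against 87301 bases on the chromosome, and Airn spanned 125010 bases, against 118574 bases.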
